A study of Mus musculus with 10 samples.

Results

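The skeletal muscle sarcomere and calcium genes described here are 34 of the 19505 genes measured on mouse Clariom S arrays in tissue of 10 tumors. They encode parts of the contractile unit of striated muscle, the proteins that release, bind and recover its calcium, and a few muscle energy proteins. They were selected on earlier results of these same arrays, namely their measured log2 signals and the high signals of many of them in the tumor labelled Ctrl 1, so their levels in Ctrl 1 are given as a description with no test. M-Wnt, a mammary cancer line of the mouse, was given an inducible shRNA against pyruvate carboxylase (PC) that doxycycline turns on, and the tumors were grown from these cells. For each tumor 50000 cells went into mammary fat pad 4 of a female C57BL6J mouse fed AIN-93G. The 5 tumors of the shPC group came from mice that drank water with doxycycline at 150 µg/ml, and the 5 Ctrl tumors came from mice on standard water. Cells of both groups carried the construct, so the drug and the shRNA it induces differ between the groups together and cannot be told apart. Tumor tissue holds host cells, and in such bulk RNA fewer cells of a type and less RNA per cell cannot be told apart.

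A sarcomere is built from thin filaments of actin and thick filaments of myosin, held in register by titin and anchored at the Z-disc. The troponin complex on the thin filament senses calcium. Calcium is let out of the sarcoplasmic reticulum by the ryanodine receptor when the voltage sensor of the surface membrane moves, and it is pumped back by the SERCA pump. Fast-twitch fibres (type II) and slow-twitch fibres (type I) use different isoforms of myosin, its light chains, the troponins and the pump. The limb and trunk muscles of a mouse consist mainly of fast fibres.

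Transcription starts downstream of a promoter, and muscle promoters are known for 3 further elements, the E-box bound by myogenic factors, the MEF2 site and the CArG box. RefSeq upstream windows (build GRCm38.p6) were at hand for 25 of the 34 genes, 30 windows in all. The 250 bases before the start are shown 5′ to 3′ on the gene's strand for the 3 genes that were farthest above the other tumors in Ctrl 1 and for both slow troponin genes, which had no wide gap there, so that promoters of genes with a wide gap and without one can be read side by side. Capitals mark matches to the E-box (CANNTG), the MEF2 site or the CArG box, 3 patterns that read alike on both strands, and no match overlaps another in these windows. The windows lie at chr8:123894776-123895025 on the minus strand (Acta1), chr7:126463074-126463323 on the minus strand (Atp2a1), chr11:67237562-67237811 on the plus strand (Myh4), chr7:4515976-4516225 on the minus strand (Tnnt1) and chr1:135799171-135799420 on the plus strand (Tnni1, the first of its 2 windows).
Acta1: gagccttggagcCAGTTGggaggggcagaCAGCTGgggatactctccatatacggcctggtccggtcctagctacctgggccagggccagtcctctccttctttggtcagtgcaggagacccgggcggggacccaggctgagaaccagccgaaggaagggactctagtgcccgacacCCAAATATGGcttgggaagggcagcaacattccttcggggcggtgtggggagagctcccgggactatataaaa
Atp2a1: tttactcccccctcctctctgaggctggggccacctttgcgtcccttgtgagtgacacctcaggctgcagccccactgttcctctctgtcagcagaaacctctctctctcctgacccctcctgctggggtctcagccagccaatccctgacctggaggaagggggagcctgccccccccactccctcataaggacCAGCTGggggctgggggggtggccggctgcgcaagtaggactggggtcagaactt
Myh4: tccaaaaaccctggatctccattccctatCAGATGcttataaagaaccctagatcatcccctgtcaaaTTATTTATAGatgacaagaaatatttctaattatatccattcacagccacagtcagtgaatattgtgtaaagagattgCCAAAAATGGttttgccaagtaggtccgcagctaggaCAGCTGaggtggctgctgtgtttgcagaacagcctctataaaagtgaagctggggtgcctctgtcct
Tnnt1: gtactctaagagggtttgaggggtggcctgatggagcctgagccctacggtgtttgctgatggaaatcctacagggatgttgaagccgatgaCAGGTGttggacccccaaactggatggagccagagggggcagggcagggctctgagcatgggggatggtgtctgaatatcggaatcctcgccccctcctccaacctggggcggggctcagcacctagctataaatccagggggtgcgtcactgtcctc
Tnni1: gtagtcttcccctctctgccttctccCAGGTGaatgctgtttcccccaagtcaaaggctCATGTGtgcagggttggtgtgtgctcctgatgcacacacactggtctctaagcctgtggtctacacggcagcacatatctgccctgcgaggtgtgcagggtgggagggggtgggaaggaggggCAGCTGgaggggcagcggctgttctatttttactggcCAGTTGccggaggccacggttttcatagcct
Acta1 held 2 E-boxes and 1 CArG box, and Myh4 held 2 E-boxes, 1 CArG box and 1 MEF2 site. Atp2a1 and Tnnt1 had 1 E-box each, and Tnni1 had 4. An E-box stood in 23 of the 30 windows (76.7%), against 66.2% of all 32851 windows of the table. A CArG box stood in 4 of the 30 (13.3%), against 1.47% of all windows, and a MEF2 site in 5 (16.7%), against 2.92%. A match is a stretch of letters and not a site of binding.

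Each gene had 1 probe set, and its deposited value is read here as a log2 signal. The sources used here give neither the base of the logarithm nor the normalization, and the highest value of each array (19.04 to 19.19) is above what a 16-bit scanner gives on a log2 scale, so differences are given in log2 units as deposited. Array medians were 7.16 to 7.47, and correlations between arrays over all genes were 0.960 to 0.993. Signals of different probe sets are not compared, since their affinities differ. Pcx, which encodes pyruvate carboxylase, had 9.91, 4.69, 9.39, 4.49 and 5.15 in shPC 1 to 5 and 10.43, 7.24, 11.01, 7.79 and 9.54 in Ctrl 1 to 5. Only 3 of the 5 shPC tumors lay below every Ctrl tumor (difference -2.48, standard error 1.19, limma adjusted p = 0.378). For the fat cell gene Adipoq, too, shPC 1 and shPC 3 were high (14.02 and 13.06). It was low in shPC 2, shPC 4 and shPC 5 (7.81, 6.98 and 8.67), and Ctrl 3 was the highest for both genes (Adipoq 15.14). The part of fat content in the Pcx signal was not tested.

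Tumor Ctrl 1 stood apart in most of the 34 genes. Its signal was the highest of the 10 tumors in 31 of them, and it exceeded the highest of the other 9 tumors by at least 1 log2 unit in 25 of 34 (73.5%), where 1.91% of all genes did so, and by at least 2 units in 17 (50%), where 1.13% of all genes did. Since the genes were chosen with these levels known, nothing is read from these shares. The gap to the median of the other 9 tumors had a median of 2.86 over the 34 genes and ran from -0.31 for Tnnt1 to 7.92 for Acta1, beside a median of -0.05 over all genes. With Ctrl 1 the highest in 31 genes, another tumor could lead only in Cacna1s, Smpx and Tnnt1, and in these 3 none led by 1 log2 unit. The share of all genes led by 1 unit, from which nothing is read about the 34, was 0.174%, 0.0769%, 0.0513%, 0.292% and 0.487% in shPC 1 to 5 and 0.349%, 0.472%, 0.0513% and 0.0923% in Ctrl 2 to 5. The genes just inside the limit of 1 log2 unit were Ldb3 (1.08) and Tnnc2 (1.10), and those just outside it were Actn3 (0.73) and Casq1 (0.67).

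**Figure D1:**
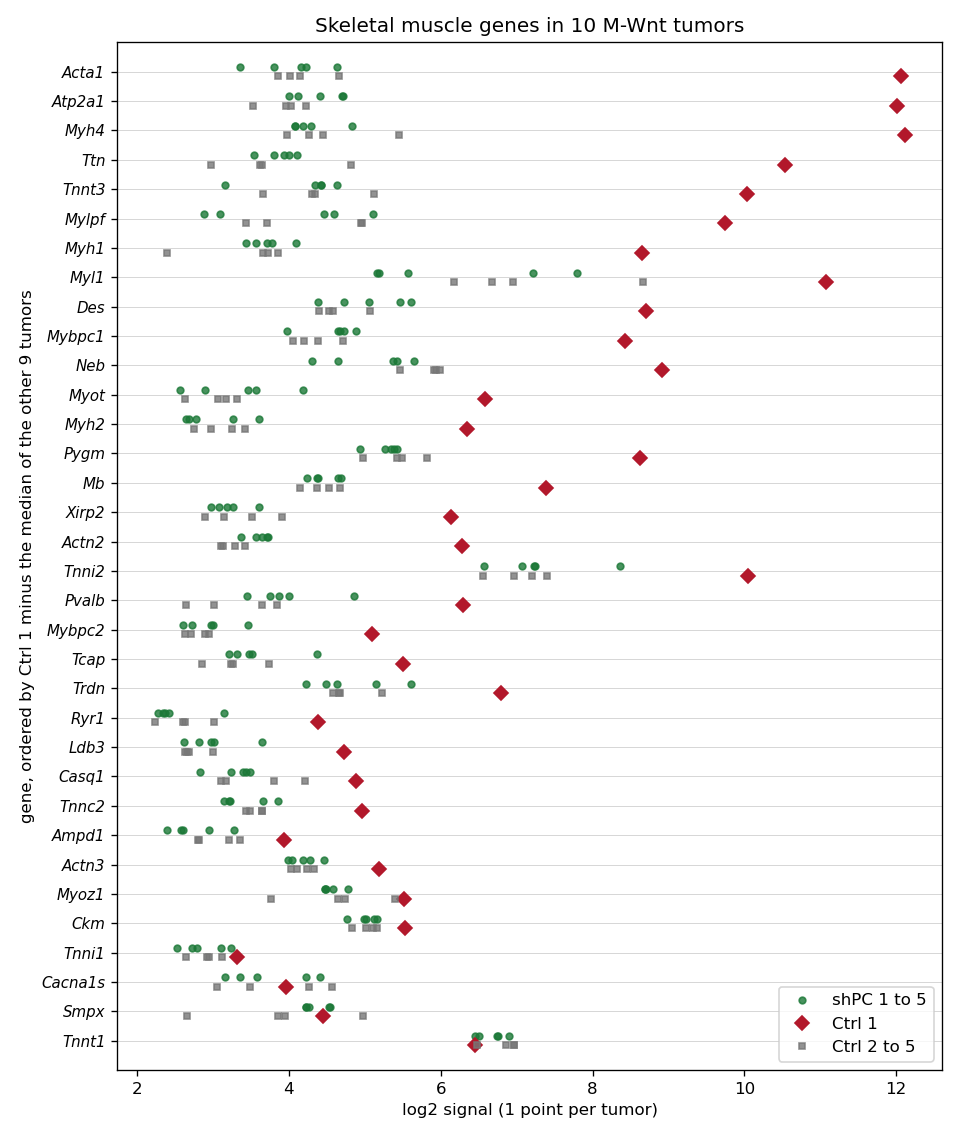
Log2 signal of each of the 34 genes (rows) in each tumor, with shPC 1 to 5 as green circles, Ctrl 1 as a red diamond and Ctrl 2 to 5 as grey squares. The red diamond lies right of every other point in 31 rows, by 7.41 units in the top row (Acta1), while the circles and squares overlap in every row.

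The thin filament genes were both high in Ctrl 1. Acta1, which encodes the actin of adult skeletal muscle, had 4.16, 3.35, 4.63, 3.80 and 4.22 in shPC 1 to 5 and 12.07, 4.66, 4.15, 4.01 and 3.85 in Ctrl 1 to 5. Ctrl 1 was 7.41 above the next tumor, Ctrl 2, and the other 9 spanned 1.31 units with shPC and Ctrl tumors mixed. Neb, the nebulin gene, whose product runs along the thin filament, had 4.31, 5.37, 5.65, 5.42 and 4.65 in the shPC tumors and 8.92, 5.94, 5.99, 5.91 and 5.47 in the Ctrl tumors. Again Ctrl 1 was far above, by 2.93, but here all 4 other Ctrl tumors also lay above 4 of the 5 shPC tumors, and only shPC 3 (5.65) reached into their range.

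Of the 7 thick filament genes all were highest in Ctrl 1, each by at least 1 log2 unit. Myh4, the myosin heavy chain of the fastest fibres (type IIB), had 4.19, 4.29, 4.08, 4.08 and 4.83 in shPC 1 to 5 and 12.11, 5.45, 3.98, 4.26 and 4.45 in Ctrl 1 to 5, and Ctrl 2 was the next after Ctrl 1. Myh1, the type IIX heavy chain, had 3.43, 3.78, 3.71, 3.57 and 4.10 in the shPC tumors and 8.65, 3.72, 2.39, 3.66 and 3.85 in the Ctrl tumors. In both heavy chains the other 4 Ctrl tumors overlapped the shPC tumors. Myh2, the type IIA heavy chain, reached 6.34 in Ctrl 1, 3.36 above a median of 2.98 in the other 9, which ran from 2.64 to 3.61. Myh1 and Myh2 were above the 30th percentile of all genes in 1 tumor each, Ctrl 1, so their gaps are taken against signals at the low end of the arrays, and the 3 heavy chains are not ranked by them. In the RefSeq annotation the 3 genes follow each other on chromosome 11, Myh2, Myh1 and Myh4, with Myh3 before and Myh8 after them. These myosins are near copies of each other, and how far their probes read one another's transcripts is not known here.

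Light chains and myosin binding proteins repeated the pattern. Mylpf, the fast regulatory light chain, had 3.09, 4.59, 5.11, 2.88 and 4.46 in the shPC tumors and 9.75, 4.95, 3.71, 3.43 and 4.96 in the Ctrl tumors. Mybpc1, the slow type of myosin binding protein C, reached 8.43 in Ctrl 1 while the other 9 held between 3.98 and 4.88, and Mybpc2, the fast type, reached 5.09 while the others held between 2.61 and 3.46. Mybpc1 was thus the one gene of the slow class that stood far out in Ctrl 1. Outside Ctrl 1 the tumors were close to each other in these genes, with a spread (SD, n = 9) of 0.33 for Mybpc1 and 0.26 for Mybpc2.

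Myl1, the fast essential light chain, varied more than any other of the 34 genes among the 9 tumors without Ctrl 1. It had 7.80, 5.19, 7.22, 5.57 and 5.16 in shPC 1 to 5 and 11.08, 6.95, 8.66, 6.17 and 6.68 in Ctrl 1 to 5. Ctrl 1 was 2.42 above Ctrl 3, and the other 9 spanned 3.50 units. Ctrl 3 and shPC 1 at the top of these 9 tumors and shPC 2, shPC 4 and shPC 5 at the bottom were also the highest 2 and the lowest 3 of them for the fat cell gene Adipoq (adiponectin), which had 14.02, 7.81, 13.06, 6.98 and 8.67 in the shPC tumors and 13.56, 11.20, 15.14, 10.31 and 13.29 in the Ctrl tumors. The part of fat content in the Myl1 signal was not tested.

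Ttn, which encodes titin, the spring that runs through the sarcomere from Z-disc to midline, had 3.94, 3.54, 4.11, 4.00 and 3.80 in the shPC tumors and 10.53, 3.62, 4.82, 3.64 and 2.98 in the Ctrl tumors. Its level in Ctrl 1 was 6.73 above the median of the others, and no other tumor passed 4.82.

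Of the 5 troponin genes 3, all of fast fibres, led in Ctrl 1 by at least 1 unit. Tnnt3, the fast troponin T that binds tropomyosin, had 4.63, 4.34, 4.42, 4.42 and 3.16 in shPC 1 to 5 and 10.03, 5.12, 4.30, 3.66 and 4.34 in Ctrl 1 to 5. Tnni2, the fast inhibitory subunit, had 7.24, 7.23, 6.57, 7.07 and 8.36 in the shPC tumors and 10.05, 6.56, 6.96, 7.40 and 7.20 in the Ctrl tumors. Both were highest in Ctrl 1, and for Tnni2 the next tumor was shPC 5, 1.69 below it. Tnnc2, the fast calcium-binding subunit, reached 4.96 in Ctrl 1 and 3.14 to 3.86 elsewhere, a narrower gap of 1.10.

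The slow troponins did not stand out in Ctrl 1. Tnnt1, the slow troponin T, had 6.45, 6.76, 6.74, 6.90 and 6.51 in shPC 1 to 5 and 6.45, 6.48, 6.86, 6.97 and 6.97 in Ctrl 1 to 5. Tnni1, the slow inhibitory subunit, had 3.10, 3.24, 2.72, 2.79 and 2.53 in the shPC tumors and 3.32, 2.64, 2.92, 3.12 and 2.95 in the Ctrl tumors. For Tnnt1 Ctrl 1 shared the lowest value with shPC 1, and for Tnni1 it was 0.08 above shPC 2. Tnni1 was above the 30th percentile of all genes in 0 tumors, so little can be read from its lack of a gap. Counted over all 34 genes, 11 of 14 genes of fast fibres led in Ctrl 1 by at least 1 unit (median gap to the others' median 3.11), 13 of 17 genes that both fibre types use did so (2.86), and 1 of 3 slow genes did so (0.40). Of all genes 1.91% did so. With 3 slow genes this split is a count and was not tested. The genes were chosen with the levels of Ctrl 1 known, so nothing is read from it.

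Z-disc genes led in Ctrl 1 by at least 1 unit in 6 of 9. Actn2, the alpha-actinin found in all fibres, had 3.71, 3.72, 3.57, 3.37 and 3.65 in the shPC tumors and 6.28, 3.11, 3.13, 3.42 and 3.29 in the Ctrl tumors. Des, desmin, the intermediate filament that links Z-discs, had 5.05, 4.39, 5.61, 5.47 and 4.73 in the shPC tumors and 8.71, 4.53, 5.07, 4.40 and 4.58 in the Ctrl tumors. In both genes Ctrl 1 was the highest, and for Actn2 the shPC tumors other than shPC 4 lay above Ctrl 2 to 5. Myot (myotilin, which binds actin and alpha-actinin) reached 6.58 in Ctrl 1 with 2.56 to 4.19 elsewhere. Xirp2, an actin-binding protein of the muscle's end junctions, reached 6.14 with 2.89 to 3.91 elsewhere. Tcap (telethonin, the cap of titin) reached 5.50 with 2.85 to 4.37 elsewhere, and Ldb3, which encodes a scaffold of the Z-disc, reached 4.73 with 2.62 to 3.65.

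The remaining 3 Z-disc genes lay closer to the other tumors. Actn3, the alpha-actinin of fast fibres, had 5.19 in Ctrl 1 and 3.99 to 4.46 elsewhere. Myoz1, a calcineurin-binding Z-disc protein of fast fibres, had 5.51 in Ctrl 1 and 5.40 in Ctrl 5. Smpx, a small muscle protein, had 4.45 in Ctrl 1, below the 4.97 of Ctrl 2, and its lowest value, 2.66, was in Ctrl 3. So 2 fast fibre genes, Actn3 and Myoz1, were within 1 unit of another tumor.

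The calcium genes ranged from among the widest gaps to none. Atp2a1, the SERCA1 pump of fast fibres, had 4.71, 4.41, 4.70, 4.12 and 4.00 in shPC 1 to 5 and 12.01, 3.96, 3.53, 4.03 and 4.22 in Ctrl 1 to 5. Pvalb, parvalbumin, a soluble calcium buffer of fast fibres, had 3.87, 3.75, 3.45, 4.00 and 4.86 in the shPC tumors and 6.30, 3.84, 2.65, 3.65 and 3.01 in the Ctrl tumors. Ctrl 1 was the highest in both, by 7.30 for Atp2a1 and by 1.44 over shPC 5 for Pvalb. Trdn, triadin, which ties the calcium store to the release channel, had 6.80 in Ctrl 1 and 4.23 to 5.61 elsewhere, and Ryr1, the release channel, had 4.39 and 2.23 to 3.14. Casq1, a calcium store protein counted here with the fast fibre genes, had 4.88 in Ctrl 1 and was followed by Ctrl 2 at 4.21. Cacna1s, the voltage sensor, had 4.22, 3.58, 3.16, 4.41 and 3.36 in the shPC tumors and 3.96, 4.26, 4.57, 3.49 and 3.05 in the Ctrl tumors, with Ctrl 3 and not Ctrl 1 at the top.

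Among the 4 energy genes Pygm and Mb led in Ctrl 1 by at least 1 unit. Pygm, muscle glycogen phosphorylase, had 8.62 in Ctrl 1 and 4.94 to 5.82 elsewhere, and Mb, myoglobin, the oxygen store, had 7.39 and 4.14 to 4.68. Ckm, muscle creatine kinase, a defining marker of skeletal muscle, had 5.01, 5.16, 4.99, 4.77 and 5.12 in the shPC tumors and 5.53, 5.16, 5.02, 4.83 and 5.11 in the Ctrl tumors, so that Ctrl 1 was the highest by only 0.37. Ampd1, muscle AMP deaminase, had 3.94 in Ctrl 1 and 2.39 to 3.36 elsewhere. Acta1, Ckm, Myh4, Tnnt3, Mylpf and Atp2a1 were taken as 6 defining markers of skeletal muscle. Of these, 5 led in Ctrl 1 by 4.64 to 7.41 units and Ckm did not. All 6 belong to the genes selected with the levels of Ctrl 1 known. Their count is therefore no separate check, and nothing is read from it.

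Without Ctrl 1 the genes sat low on the arrays. In Ctrl 1, 31 of the 34 were above the 30th percentile of all genes on their array and 13 above its median. In the other 9 tumors 11 to 19 were above the 30th percentile and 0 or 1 above the median. A filter that asked for a signal above the 30th percentile on at least 5 arrays was passed by 17 of the 34 and not by the other 17. Each tumor's own median deviation from the 10-tumor medians of the 34 genes was 0.04, -0.06, 0.02, -0.13 and 0.03 in shPC 1 to 5, and 2.81, 0.05, -0.16, -0.12 and 0.01 in Ctrl 1 to 5. Of the 31 genes highest in Ctrl 1 the next tumor was shPC 5 in 9 and Ctrl 2 in 4, so that no other tumor came second throughout.

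Some muscle genes outside the 34 were also high in Ctrl 1. Of 87 such genes measured on 10 lists, 9 led in Ctrl 1 by at least 1 unit, where 1.91% of all genes did so. By any margin 18 were highest there, as were 1854 of all 19505 genes. The median gap to the others' median was 0.03 over the 87. Since the lists were chosen with earlier results known, nothing is read from these counts. Myh8, the perinatal myosin heavy chain and the neighbour of Myh4, had 4.93, 4.72, 4.33, 4.41 and 5.15 in the shPC tumors and 11.44, 5.44, 3.49, 3.85 and 3.81 in the Ctrl tumors. Of 7 embryonic muscle genes it was the 1 that led by at least 1 unit. As with Myh4, Ctrl 1 and then Ctrl 2 were the highest, and whether its probes read Myh4 was not tested. Tpm2, the beta-tropomyosin gene, had 8.56, 5.69, 7.01, 7.96 and 7.58 in the shPC tumors and 11.10, 6.63, 8.15, 5.63 and 7.01 in the Ctrl tumors. With Nrap, an actin-binding protein of growing myofibrils (7.21 in Ctrl 1 and 3.16 to 5.09 elsewhere), Myom1 (myomesin of the sarcomere's midline) and Klhl41, a kelch protein of the sarcomere, it was among 5 of 16 other sarcomere genes that led by 1 unit.

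Genes that slow fibres share with the heart gave 2 of 10, the Z-disc gene Myoz2 (5.61 in Ctrl 1 and 2.73 to 4.09 elsewhere) and Csrp3, a muscle LIM protein (4.22 and 2.61 to 3.14). Myh7, the slow myosin heavy chain, had 3.42, 3.13, 3.35, 3.29 and 3.37 in the shPC tumors and 3.27, 3.51, 3.06, 3.41 and 3.0 in the Ctrl tumors. Ctrl 1 was inside the range of the rest, and Myh7 was above the 30th percentile in 0 tumors. Further muscle energy genes gave 1 of 11, Pgam2, the muscle phosphoglycerate mutase. Calcium and excitation genes outside the 34 (0 of 13), myogenic regulators (0 of 8), satellite cell genes (0 of 6), neuromuscular junction genes (0 of 7), muscle membrane genes (0 of 5) and atrophy genes (0 of 4) gave none, and neither did cardiac muscle genes (0 of 7) or smooth muscle genes (0 of 7). With 1.91% of all genes leading in Ctrl 1 by 1 unit, a count of 0 on lists this short is not read as absence. Pax7 and Myf5, which mark muscle stem cells, were at 2.10 and 2.03 in Ctrl 1 and at most 2.91 and 2.83 in any other tumor. Both were above the 30th percentile of all genes in 0 tumors, so little can be read from these values.

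**Figure D2:**
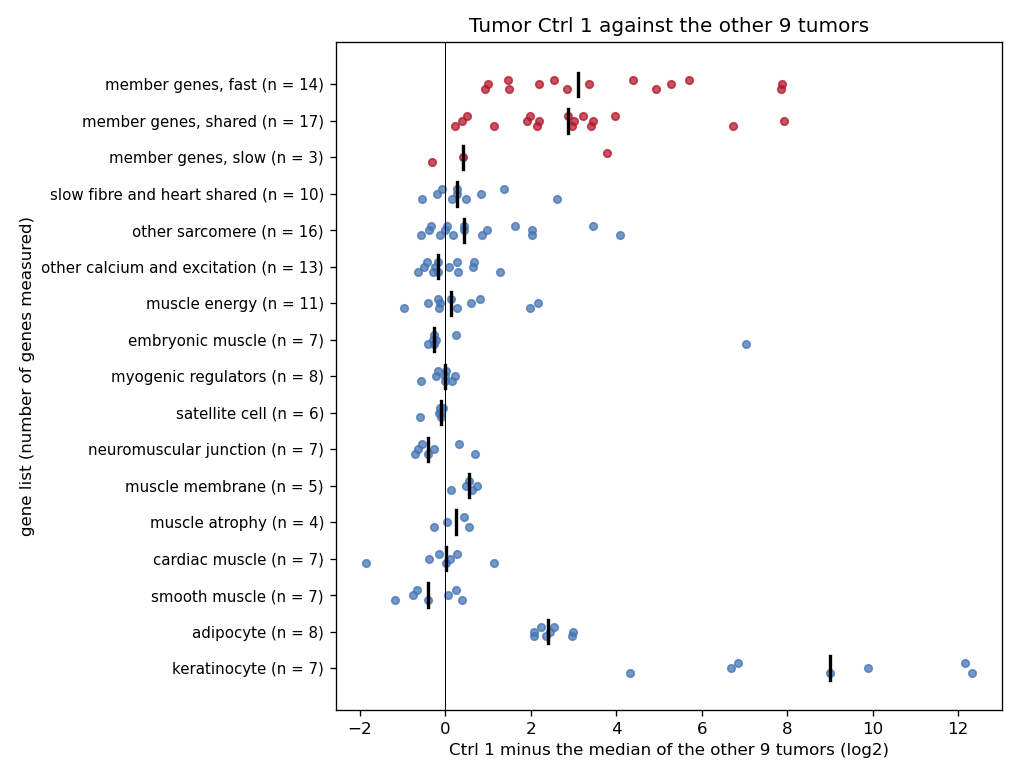
Difference between Ctrl 1 and the median of the other 9 tumors (x axis, log2 units), 1 point per gene, for the 34 genes split by fibre class (red) and for lists of other genes (blue), with black bars at each list's median. The fast and shared classes have medians of 3.11 and 2.86, most other muscle lists lie near 0, and the 7 keratinocyte genes have a median of 9.01.

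Ctrl 1 also held high levels of skin genes. All 7 keratinocyte genes were highest there, each by at least 1 unit, and their mean signal was 3.92, 3.61, 4.22, 6.58 and 3.89 in shPC 1 to 5 and 12.94, 3.80, 4.12, 3.86 and 4.17 in Ctrl 1 to 5. Krt14, a keratin of the basal layer, was at 14.67 in Ctrl 1, and Krt10, a keratin of the upper layers, at 17.19. The 10 genes outside the 34 with the widest gaps between Ctrl 1 and the median of the others (Krt1, Krt10, Hrnr, Calm4, Dmkn, Krtdap, Krt14, Flg2, Kprp and Krt77, gaps of 9.65 to 12.32) are all known from the epidermis. Tumor shPC 4 was the next in the keratinocyte mean, with Krt5 at 8.41, though its 6.58 was far below the 12.94 of Ctrl 1. Over the 34 muscle genes the mean of shPC 4 was 4.10, inside the range of 4.03 to 4.29 of the 9 tumors other than Ctrl 1. Of 8 adipocyte genes 0 led in Ctrl 1 by 1 unit, where their mean was 11.89, beside 13.06 in Ctrl 3 and 12.13 in shPC 1. Among further cell types, 1 of 5 brown adipocyte genes (Elovl3) led in Ctrl 1 by at least 1 unit, and none did of the genes of luminal epithelium (0 of 6), Schwann cells (0 of 2), tendon (0 of 5), B cells (0 of 3), erythroid cells (0 of 1) and endothelium (0 of 3). Here too 1.91% of all genes led in Ctrl 1 by 1 unit, so a count of 0 on a short list is not read as absence. The part of skin cells in the muscle levels of Ctrl 1 was not tested.

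**Figure D3:**
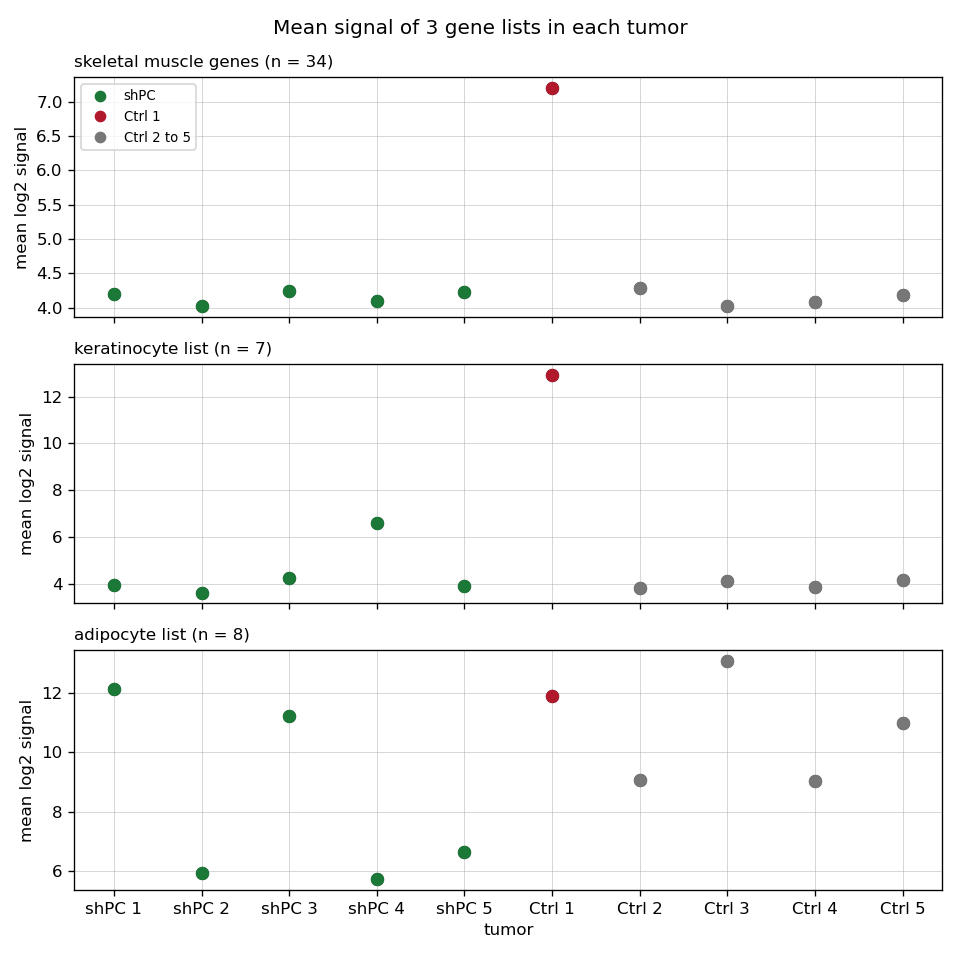
Mean log2 signal (y axes) of the 34 skeletal muscle genes, 7 keratinocyte genes and 8 adipocyte genes in each tumor (x axis), with shPC tumors in green, Ctrl 1 in red and Ctrl 2 to 5 in grey. The muscle mean is 7.20 in Ctrl 1 and 4.03 to 4.29 elsewhere, the keratinocyte mean is also high in shPC 4, and the adipocyte mean varies across both groups.

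The question of the study was what induction of the shRNA changes, and for that the 5 shPC tumors were compared with the 5 Ctrl tumors by limma across all 19505 genes. None of the 34 genes passed an adjusted p of 0.05, and neither did any other gene (0%). The methods' t-test also gave 0 genes, and limma with trend and robust variances gave 10, none of them among the 34. At an unadjusted p under 0.05, 1 of the 34 was lower in shPC tumors, where 6.25% of all genes were, and 0 were higher, where 7.8% of all genes were. The gene lower was Neb, with 5.08 ± 0.57 in shPC tumors and 6.45 ± 1.4 in Ctrl tumors (SD, n = 5 each), a difference of -1.37 (standard error 0.58, limma adjusted p = 0.323). Neither share is above that of all genes. In no gene of the 34 did all 5 shPC tumors lie below all 5 Ctrl tumors, which 1.79% of all genes did, or above them, which 1.82% did.

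The differences of the 34 genes were nearly all negative with Ctrl 1 in the Ctrl group. Their median was -0.44, with 32 of 34 below 0, beside a median of 0.04 over all genes. Ctrl 1 is in the Ctrl group, and the genes were selected with its high levels known. Negative differences were thus partly set by the selection, and nothing is read from these signs or from the p-values below. Acta1 averaged 4.03 ± 0.48 in shPC tumors and 5.75 ± 3.55 in Ctrl tumors (SD, n = 5 each), a difference of -1.72 with a standard error of 1.35 (limma adjusted p = 0.592). Myh4 averaged 4.29 ± 0.31 in shPC tumors and 6.05 ± 3.43 in Ctrl tumors, a difference of -1.76 with a standard error of 1.30 (limma adjusted p = 0.566). The spread within the Ctrl group was larger than the difference in both. Myl1 had a difference of -1.72 (standard error 0.89, limma adjusted p = 0.416). Pvalb (0.10) and Smpx (0.38) were the 2 genes with positive differences.

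Leaving Ctrl 1 out brought the median of the 34 differences to -0.03, with 18 of 34 below 0, beside 0.04 over all genes, and 14 genes changed sign. Again 0 of the 34 passed the adjusted p, as did 0% of all genes. One gene, Neb, was lower at an unadjusted p under 0.05 (1 of 34, against 5.87% of all genes), and Actn2 was higher (1 of 34, against 6.13%). Neb then had 5.08 in shPC tumors and 5.83 in Ctrl 2 to 5, a difference of -0.75 (standard error 0.28, limma adjusted p = 0.349). Actn2 had 3.60 in shPC tumors and 3.24 in Ctrl 2 to 5, a difference of 0.37 (standard error 0.14, limma adjusted p = 0.359). Atp2a1 gave 0.45 without Ctrl 1, where it had given -1.16 with it, and Acta1 gave -0.14.

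**Figure D4:**
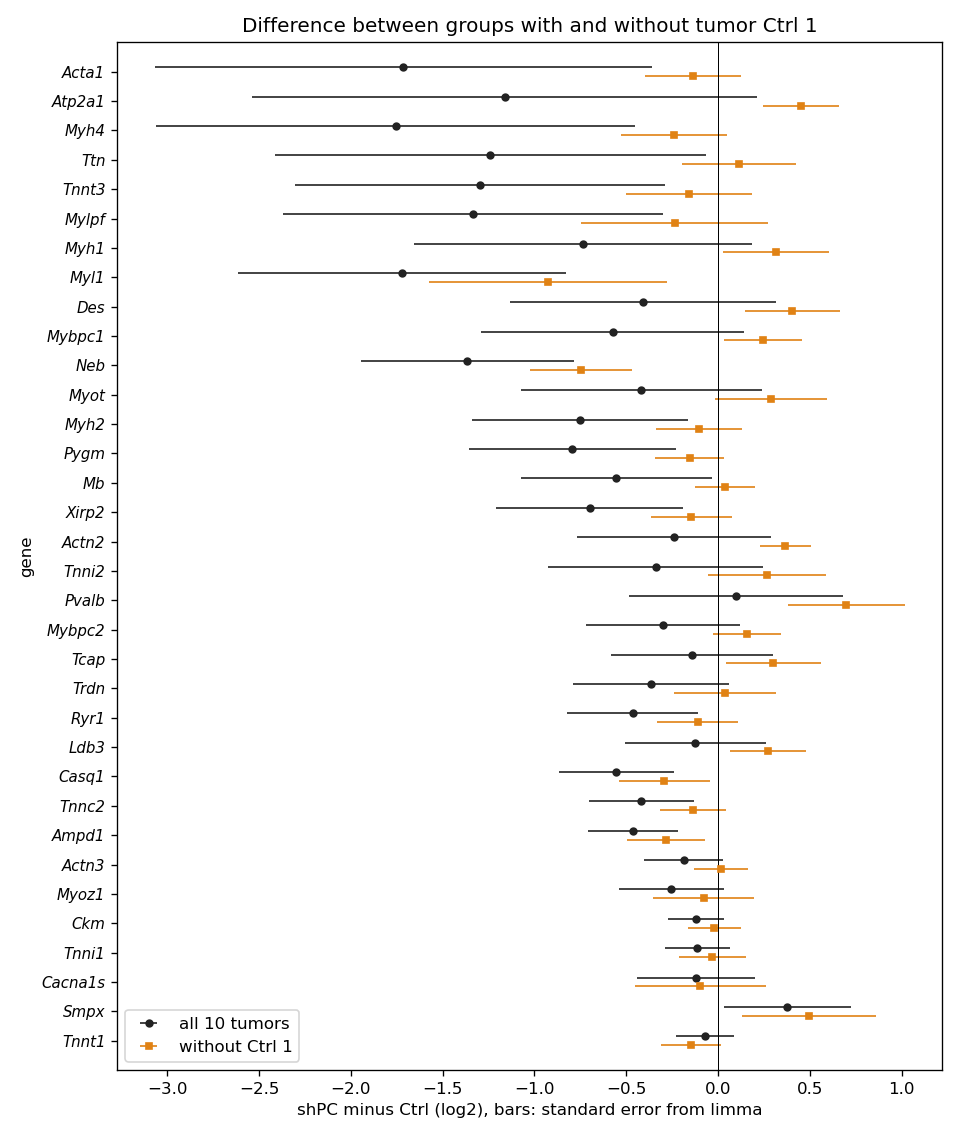
Difference shPC minus Ctrl (x axis, log2 units, bars are standard errors from limma) for each of the 34 genes (rows, in the order of their gap in Ctrl 1), with all 10 tumors (black circles) and without Ctrl 1 (orange squares). With all tumors 32 of 34 circles lie left of 0, and without Ctrl 1 the squares lie on both sides, 18 of them left.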

How the data were processed

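RNA of 10 tumors (5 shPC, 5 Ctrl) was isolated with TRIzol and hybridized to Clariom S arrays, 1 per tumor, after WT PLUS labelling. The paper's methods divide each primary tumor into a frozen and a fixed part, and do not name the part used for RNA. The authors used Transcriptome Analysis Console for quality control and tests. The values the authors deposited are taken as log2 signals, with a normalization not stated in the sources used. The table holds 22206 probe sets. The annotation pairs 19572 with 1 gene and 0 with several, and the remaining 2634, for which it has no entry, were dropped. For 55 genes with several probe sets the one with the highest mean was used, which left 19505 genes, and 0 symbols needed a change against RefSeq. The annotation gives no coordinates for the probes. No sample was left out, and groups come from the labels. The sources do not say whether a mouse gave more than 1 tumor, so the p-values reflect only how these tumors vary. The number of arrays limits the precision.

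Groups were compared with limma 3.58.1 in R 4.3.3 (shPC minus Ctrl, default moderation, no filter), with Benjamini-Hochberg adjustment over all genes at 0.05. The procedure was tested on simulated data. The 34 genes and the 21 lists of other genes were chosen with earlier results of these data known. All 34 genes are named, and so are the 10 other genes with the widest positive gap, leaving out predicted genes and odorant receptors. A rule also picked from each list the genes with the widest gaps in either direction (at most 4) between Ctrl 1 and the median of the others. Not all genes picked by this rule are given in the text. Those left out include genes that were lower in Ctrl 1 than that median. Where another gene is named, it was chosen after its values were seen or as a defining marker. Results were recomputed with centred arrays, quantile normalization, the 30th percentile filter, array weights, trend and robust variances (statmod 1.5.0), the mean of probe sets, the methods' t-test, the replicate number as a block, a limit of 2 log2 units, the mean of the other 9, and leaving out each tumor. Ctrl 1 against the other 4 Ctrl tumors was chosen after seeing the data. Upstream windows come from RefSeq (GRCm38.p6).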

Additional observations from a re-analysis of the deposited data

Results flagged for a closer look

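In groups of 5 tumors a value was marked when the distance of the highest or lowest tumor to its neighbour, as a share of the group's range, exceeded 0.71 (Dixon's limit). Chance marks about 1 in 20 groups, and 244 were examined. That rate holds for groups not chosen on their values. The 34 genes and the genes named for wide gaps were picked with the levels of Ctrl 1 known. The rate therefore cannot be set beside the marks of Ctrl 1, and nothing is read from their number. Among the 34 genes the shPC group was marked in 5. shPC 5 was the highest in Ryr1 (0.828), Tcap (0.733) and Myh4 (0.720) and the lowest in Tnnt3 (0.803), and shPC 3 was the lowest in Mybpc1 (0.744).

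Among the 34 genes the Ctrl group was marked in 20, each time with Ctrl 1 as the highest. These were Atp2a1 (0.919), Acta1 (0.902), Actn2 (0.902), Mybpc2 (0.870), Tnnc2 (0.862), Mybpc1 (0.851), Neb (0.849), Des (0.845), Mb (0.837), Myot (0.825), Ldb3 (0.824), Myh4 (0.819), Myh2 (0.813), Tnnt3 (0.771), Myh1 (0.767), Pygm (0.767), Tnni2 (0.759), Mylpf (0.758), Ttn (0.756) and Actn3 (0.741).

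Among the other genes named by the rule or in the text, 28 groups were marked. In the shPC group Krt1 (0.872), Hrnr (0.801) and Calm4 (0.732) were highest in shPC 4. Mylk2 (0.832), Smtn (0.806) and Chrnb1 (0.786) were highest in shPC 5, Cox6a2 (0.845) and Sntb1 (0.729) were lowest there, and Mymk (0.782) was highest in shPC 1. In the Ctrl group Ctrl 1 was the highest in Krt77 (0.994), Kprp (0.958), Krt1 (0.948), Calm4 (0.944), Dmkn (0.937), Flg2 (0.925), Elovl3 (0.919), Hrnr (0.916), Krtdap (0.883), Nrap (0.848), Krt10 (0.840), Krt5 (0.834), Pgam2 (0.822), Krt14 (0.805) and Myh8 (0.755). It was the lowest in Pax7 (0.753) and Dok7 (0.746), and Ctrl 3 was the lowest in Six4 (0.826) and the highest in Sox10 (0.726).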

How the results depend on the processing

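The count of genes past the adjusted p was 0, and it was 1 with arrays centred on their median, 10 with trend and robust variances, and 0 to 4 when each tumor was left out in turn (4 without shPC 4, 1 without shPC 2 and 1 without Ctrl 4), while 0 of the 34 genes passed in any of these settings, the methods' t-test and array weights included. The deviations of same-numbered tumors correlated with r of 0.044, 0.109, 0.281, 0.074 and 0.091 in pairs 1 to 5, over 0.1 in 2 of 5 pairs. Of the 5 shPC tumors 1 correlated best with the Ctrl tumor of its own number. Whether replicate numbers pair the tumors cannot be told from these values. With the replicate number as a block 0 genes and 0 of the 34 passed, and the median difference stayed at -0.44. The median gap of Ctrl 1 to the other 9 tumors was 2.64 after quantile normalization, 2.74 with centred arrays, 3.23 among the 17 genes that passed the filter on dim probe sets, and 2.96 against the other 4 Ctrl tumors alone (added after seeing the data). The count of genes led by Ctrl 1 by 1 unit was 12 of those 17. After quantile normalization the difference of Tnnt1 was 0.0561 and that of Ckm 0.0056, both with the other sign. Leaving out each tumor gave ranges that crossed 0 for 16 genes. In 14 of them the sign changed only without Ctrl 1, which gave the upper end: Myh1 -1.25 to 0.31, Mybpc1 -0.85 to 0.24, Mybpc2 -0.46 to 0.16, Ttn -1.77 to 0.11, Tnni2 -0.61 to 0.26, Actn2 -0.43 to 0.37, Actn3 -0.28 to 0.0145, Tcap -0.36 to 0.30, Des -0.67 to 0.41, Myot -0.70 to 0.29, Ldb3 -0.28 to 0.27, Atp2a1 -1.67 to 0.45, Trdn -0.56 to 0.037 and Mb -0.78 to 0.0365. Cacna1s ran from -0.32 to 0.056 and Pvalb from -0.21 to 0.70, the last without Ctrl 1. The causes were not tested. With 5 arrays a group, differences smaller than the spread between tumors could not be resolved, and 17 of the 34 genes lay near the low end of the arrays in most tumors.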

Other observations

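Of 11 muscle energy genes outside the 34, 0 passed the adjusted p. At an unadjusted p under 0.05 limma gave 2 higher in shPC tumors (Eno3 and Phka1), where 7.8% of all genes were higher. It gave 1 lower (Cox6a2), where 6.25% of all genes were lower. Eno3, the muscle enolase of glycolysis, had 9.26, 9.22, 9.30, 9.37 and 9.58 in shPC 1 to 5 and 8.26, 8.78, 8.46, 8.98 and 8.68 in Ctrl 1 to 5. Every shPC tumor was above every Ctrl tumor, and Ctrl 1 was the lowest of all 10. The difference was 0.71 (standard error 0.16, limma adjusted p = 0.185), and without Ctrl 1 it was 0.62 (standard error 0.15, limma adjusted p = 0.282), so it missed the threshold over all genes both ways. Phka1, a subunit of phosphorylase kinase, had a difference of 0.44 (limma adjusted p = 0.273), and it is named because it is 1 of these 3. Groups that did not overlap with shPC above Ctrl made up 1.82% of all genes. Cox6a2, a muscle subunit of cytochrome c oxidase, had 6.18, 6.21, 6.30, 6.38 and 5.09 in the shPC tumors and 8.43, 7.78, 6.97, 6.26 and 6.22 in the Ctrl tumors. Its values were high in Ctrl 1, Ctrl 2 and Ctrl 3 and overlapped between the groups (difference -1.10, standard error 0.43, limma adjusted p = 0.287). Eno3 did not have the widest difference of the genes listed. Tnnt2, on the cardiac list, had 10.86 to 12.73 in shPC tumors and 7.55 to 10.50 in Ctrl tumors. Its difference was 2.62 (standard error 0.54, limma adjusted p = 0.185). Of the 7 cardiac genes 1 was higher (Tnnt2) and 1 lower (Nppb) at an unadjusted p under 0.05, beside the same 7.8% and 6.25% of all genes. Nothing is read from counts on lists this short.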
